A study of Homo sapiens with 10 samples.

Results

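The human zinc finger genes of chromosome 19 were examined in 3 liver cancer cell lines. Members were the genes that the deposited tables place on chromosome 19 and whose symbol is ZNF, a number and at most a letter from A to D, which leaves out pseudogenes and antisense genes. This gave 247 of 58302 genes, all protein coding in the GENCODE 29 annotation, and 2953 genes of the tables lie on chromosome 19. A further 261 protein-coding genes with such symbols lie on other chromosomes, and they and the 1220 other protein-coding genes of chromosome 19 served for comparison.

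C2H2 zinc finger proteins bind DNA through repeated finger modules, and most of those encoded on human chromosome 19 also carry a KRAB domain. The KRAB domain recruits the corepressor TRIM28 (KAP1) and, through it, the histone methyltransferase SETDB1 and heterochromatin proteins, and many of the best studied members repress retrotransposons. The genes arose by repeated local duplication, so they lie in clusters in which neighbours are paralogs.

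The RNA-Seq comprised 10 libraries, each of its own condition. In SK-hep1 (5 libraries) these were a mock control and cells carrying PSPC1, PSPC1/PTK6, PSPC1-Y523F or PSPC1-Y523F/PTK6, where PSPC1 is paraspeckle component 1, PTK6 a tyrosine kinase and Y523F a tyrosine-to-phenylalanine mutant. The 3 Mahlavu libraries were a mock control and libraries labelled as overexpressing the C-terminal fragment PSPC1-CT131 or Mut-NLS-CT131, its version with a mutated nuclear localization sequence. The 2 Huh-7 libraries were untreated cells and cells given 10 ng/ml hepatocyte growth factor (HGF) for 48 h. The study's methods describe transfection of plasmids and drug-selected stable clones for animal work, and whether the sequenced cells were such clones, transient transfectants or pools is not given in the sources used here. The libraries of a line carry different constructs or treatments, so a comparison between lines was set against the spread over those libraries, and conditions within a line were described without a test. The Huh-7 libraries were deposited apart from the others, so that line and sequencing run cannot be told apart there.

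Gene reads per library ran from 15245935 to 24278662. Hepatocyte markers (ALB, APOA1, APOB, AFP, TTR, SERPINA1, HNF4A and FGB) summed to 26320 and 26100 FPKM in the Huh-7 libraries, where none was under 0.1 FPKM, against 8.13 to 42.4 FPKM in SK-hep1 and Mahlavu, where 6 or 7 of the 8 were under 0.1 FPKM in each library and ALB, TTR and FGB were listed at 0 in both lines. The labels call all 3 lines hepatocellular carcinoma lines, and SERPINA1 was the one hepatocyte marker above 0.1 FPKM on average in SK-hep1 and Mahlavu. FPKM are fragments scaled to gene length and to library size, a level per length. Endothelial markers summed to at most 7.11 FPKM in any library. PSPC1 had 0 reads in SK-hep1 mock and 71 to 2539 reads in the 4 SK-hep1 libraries labelled with a PSPC1 construct. In Mahlavu, mock had the most PSPC1 reads, 1582. The libraries labelled PSPC1-CT131 and Mut-NLS-CT131 had 899 and 632. Reads of the fragment and of the cells' own PSPC1 were not separated, so these counts cannot check the labels. The paper reports lower PSPC1 protein with PSPC1-CT131 but not with Mut-NLS-CT131. PTK6 had 1060 and 679 reads in the SK-hep1 libraries labelled with it and 230 to 307 in the other 3.

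The members were read at low levels, and at lower levels in SK-hep1 than in the other lines. The median member had a line mean of 0.902 FPKM in SK-hep1, 2.51 FPKM in Mahlavu and 3.36 FPKM in Huh-7. A line mean of at least 1 FPKM was reached by 118 members (47.8%) in SK-hep1, 183 (74.1%) in Mahlavu and 202 (81.8%) in Huh-7, and by 103 members in all 3 lines. The ZNF genes of other chromosomes differed less between the lines, with 65.9%, 74.7% and 77.8% of them at or above 1 FPKM. A line mean under 0.1 FPKM was found for 87 members (35.2%) in SK-hep1, against 18 (7.3%) in each of Mahlavu and Huh-7. In all 3 lines 9 members were under it. Among the ZNF genes of other chromosomes the shares were 17.6%, 12.6% and 11.9% in SK-hep1, Mahlavu and Huh-7. Among the other protein-coding genes of chromosome 19 they were 32.7%, 34.5% and 30.8%. The members' share in SK-hep1 was thus near that of the latter, and their shares in Mahlavu and Huh-7 were below it.

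The 6 members with the highest mean over the lines were ZNF787, ZNF444, ZNF579, ZNF114, ZNF580 and ZNF865. All but ZNF114 lie in the cluster called I below, and the transcripts of these 5 hold 57.8% to 71.1% G and C, against a median of 42.2% over the members and 49.1% over all protein-coding genes. ZNF787 had 141 FPKM in SK-hep1 (94.2 to 179), 91.5 FPKM in Mahlavu (75.3 to 105) and 83.4 FPKM in Huh-7 (82.1 to 84.6), and did not pass the test with a 2-fold difference in any pair of lines. ZNF579 had 141 FPKM in SK-hep1 (109 to 164), 48.3 FPKM in Mahlavu (41.7 to 56.3) and 16.9 FPKM in both Huh-7 libraries, with no overlap between lines. ZNF444 had another order, with 139 FPKM in Huh-7, 93.8 FPKM in SK-hep1 and 37.2 FPKM in Mahlavu. ZNF114 stood between clusters and was highest in Mahlavu, with 192, 130 and 146 FPKM, against 20.5 to 88.4 FPKM in SK-hep1 and 4.51 and 3.65 FPKM in Huh-7.

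**Figure D1:**
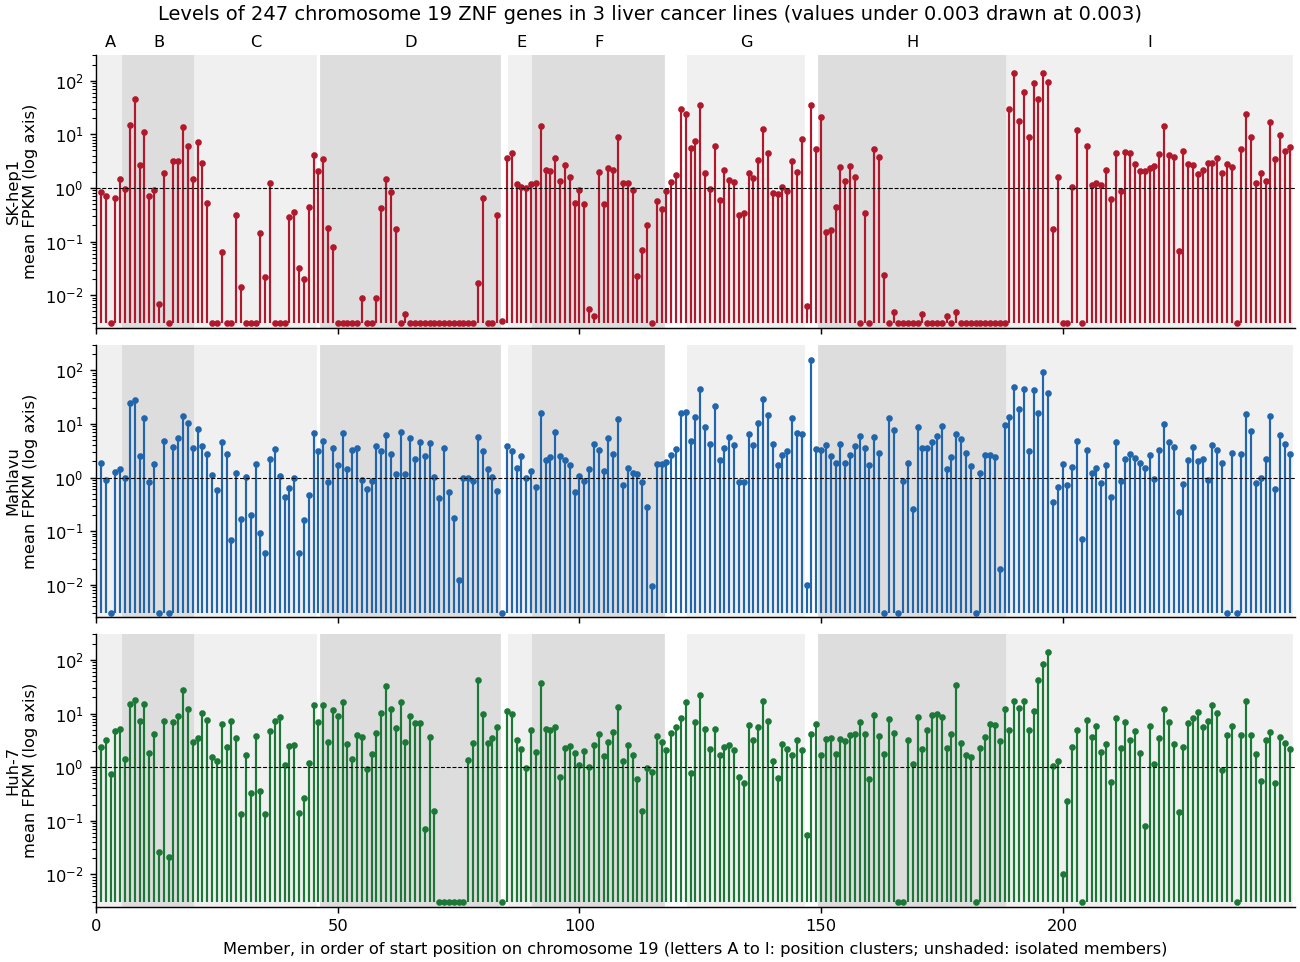
Line mean in FPKM (log axis, values under 0.003 drawn at 0.003, dashed line at 1 FPKM) of each of the 247 members in order of start position, for SK-hep1 (5 libraries), Mahlavu (3) and Huh-7 (2), with position clusters A to I shaded. In SK-hep1, runs of neighbouring members in clusters C, D and H lie at the bottom of the axis, where Mahlavu and Huh-7 show most of the same members near or above the dashed line.

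Members whose starts were no more than 1 Mb apart were taken as a cluster, which gave 9 clusters of at least 5 members and 11 isolated members. Clusters D (19668796 to 24129961, 37 members from ZNF101 to ZNF254), H (51571298 to 53580269, 39 members from ZNF175 to ZNF331) and I (55476332 to 58481230, 59 members from ZNF628 to ZNF446) were the largest, in GRCh38 coordinates of chromosome 19. The remaining ones were A (ZNF554 to ZNF77, 5 members), B (ZNF557 to ZNF846, 15), C (ZNF653 to ZNF791, 25), E (ZNF302 to ZNF792, 5), F (ZNF565 to ZNF573, 27) and G (ZNF575 to ZNF296, 24).

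Long runs of neighbouring members had next to no reads in SK-hep1. The longest held 26 consecutive members of cluster H, from ZNF610 to ZNF331 (chr19:52336245-53580269). These 26 genes together had 8 reads among the 111141982 gene reads of the 5 SK-hep1 libraries, 21 of them had none, and 20 were at or above 1 FPKM in Mahlavu and 23 in Huh-7. In Mahlavu they had 9259 of 61574480 reads and in Huh-7 7555 of 31620063. In cluster D, 10 consecutive members from ZNF506 to ZNF85 had 17 reads in SK-hep1, against 2414 in Mahlavu and 2510 in Huh-7. A second run in cluster D, 17 members from ZNF738 to ZNF91, had 4 reads in SK-hep1, against 4159 in Mahlavu and 4438 in Huh-7. Cluster C held a pair of shorter runs, ZNF441 to ZNF69 (5 members, 10 reads in SK-hep1, 934 in Mahlavu and 896 in Huh-7) and ZNF763 to ZNF844 (4 members, 2 reads in SK-hep1, 451 and 447 in the other lines). A run was counted where at least 4 consecutive members of a cluster had a line mean under 0.1 FPKM, a rule set after the values were seen.

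No run of that kind was found in Mahlavu. Huh-7 had 1, the 6 members from ZNF729 to ZNF728 in cluster D, with 0 of its 31620063 reads and 588 reads in Mahlavu. None of these 6 had a read in SK-hep1 either.

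Counted gene by gene, 171 members were at or above 1 FPKM in both Mahlavu and Huh-7, and 45 of these (26.3%) were under 0.1 FPKM in SK-hep1. The same count was 5 of 178 (2.81%) among the ZNF genes of other chromosomes, 8 of 598 (1.34%) among the other protein-coding genes of chromosome 19 and 232 of 10408 (2.23%) among all protein-coding genes. For Mahlavu as the low line it was 1 of 112 members (ZNF256), and for Huh-7 1 of 107 (ZNF549). Of the 45 members, 21 lie in cluster H, 16 in D, 7 in C and 1, ZNF568, in F, and clusters A, B, E, G and I held none. These 45 were chosen by their line means, and their reads are given as a description, with 2 to 15 over the 45 members in each SK-hep1 library, against 3534 to 7950 in the Mahlavu libraries and 8651 and 7735 in the Huh-7 libraries. In bulk RNA, fewer expressing cells and less RNA per cell cannot be told apart. Whether the stretches without reads are present in the genome of these SK-hep1 cells was not tested, so that a 0 here cannot tell a gene that is not transcribed from one that is missing.

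The runs were interrupted by members that were read in SK-hep1. Between both runs of cluster D, ZNF430, ZNF714, ZNF431 and ZNF708 had line means of 0.426, 1.46, 0.824 and 0.168 FPKM in SK-hep1. Just before the run of cluster H, ZNF766 and ZNF480 had 5.28 and 3.75 FPKM in SK-hep1, against 5.62 and 2.90 FPKM in Mahlavu and 9.49 and 3.81 FPKM in Huh-7. PPP2R1A, a scaffold subunit of protein phosphatase 2A and the nearest other protein-coding gene before that run, had 327 FPKM in SK-hep1, 275 in Mahlavu and 141 in Huh-7. ATP13A1, the nearest before ZNF506, had 71.2, 77.4 and 79.9 FPKM. On the other side of PPP2R1A, ZNF841 and ZNF836 had no read in SK-hep1, and ZNF616 between them had 0.337 FPKM.

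Within the run of cluster H the tables list 7 other protein-coding genes, of which only ERVV-2, an endogenous retroviral envelope gene, reached 1 FPKM in a line, at 2.40 FPKM in Mahlavu and 0 in SK-hep1. Among the 35 other genes in it, 7 were at or above 1 FPKM in Mahlavu, 5 in Huh-7 and 0 in SK-hep1. The pseudogene ZNF702P had 10.96 FPKM in Mahlavu and 0.0101 in SK-hep1, and TPM3P9 had 5.23 and 0. NDUFV2P1, a processed pseudogene, was the exception to a level under 0.1 FPKM, at 0.651 FPKM in SK-hep1. In the 2 runs of cluster D, all 43 and 83 genes of other types were under 0.1 FPKM in SK-hep1, but so were 31 and 68 of them in Mahlavu and 33 and 73 in Huh-7.

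Several members of these runs are well studied. ZNF331, an imprinted gene, had 11.3, 6.51 and 10.8 FPKM in Mahlavu and 12.95 and 11.2 FPKM in Huh-7, with 0 reads in each SK-hep1 library. ZNF91, which represses SVA retrotransposons, had 8.07, 3.04 and 6.17 FPKM in Mahlavu, 41.8 and 42.6 FPKM in Huh-7, and 3 reads in SK-hep1 in all. ZNF93, which represses LINE-1 elements, had 9.53, 4.26 and 6.85 FPKM in Mahlavu, 15.96 and 17.5 FPKM in Huh-7, and 0 reads in SK-hep1. ZNF160 had 7.31, 4.92 and 6.98 FPKM in Mahlavu, 32.9 and 35.6 FPKM in Huh-7, and 1 read in SK-hep1. For all 4 genes the lines did not overlap between SK-hep1 and either other line.

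Promoter windows of 300 bases (250 before and 50 after the start) were given by RefSeq (GRCh38.p14) for 216 of the 247 members. They are shown for ZNF766, which was read in every SK-hep1 library, and for ZNF160, ZNF331 and ZNF91, which had at most 3 reads over its 5 libraries, since these neighbours and paralogs carry the contrast described above. Each is printed 5′ to 3′ on the strand of its gene, with CG dinucleotides in capitals.
ZNF766: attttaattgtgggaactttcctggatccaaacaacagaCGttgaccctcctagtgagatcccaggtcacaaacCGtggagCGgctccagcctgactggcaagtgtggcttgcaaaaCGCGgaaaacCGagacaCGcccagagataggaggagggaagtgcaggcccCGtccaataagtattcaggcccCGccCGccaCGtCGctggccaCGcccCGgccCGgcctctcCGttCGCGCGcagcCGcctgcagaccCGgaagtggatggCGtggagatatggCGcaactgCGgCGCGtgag
ZNF160: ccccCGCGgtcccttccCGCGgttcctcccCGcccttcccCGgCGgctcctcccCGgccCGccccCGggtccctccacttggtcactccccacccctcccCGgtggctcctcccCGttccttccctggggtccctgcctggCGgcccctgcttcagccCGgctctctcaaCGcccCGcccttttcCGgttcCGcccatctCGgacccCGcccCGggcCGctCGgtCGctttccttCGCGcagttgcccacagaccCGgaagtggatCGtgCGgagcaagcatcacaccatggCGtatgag
ZNF331: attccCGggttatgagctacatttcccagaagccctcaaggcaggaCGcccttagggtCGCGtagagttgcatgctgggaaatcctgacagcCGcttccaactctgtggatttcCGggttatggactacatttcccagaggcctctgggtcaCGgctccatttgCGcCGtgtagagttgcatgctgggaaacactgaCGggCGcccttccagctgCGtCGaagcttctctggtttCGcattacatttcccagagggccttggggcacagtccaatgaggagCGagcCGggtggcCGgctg
ZNF91: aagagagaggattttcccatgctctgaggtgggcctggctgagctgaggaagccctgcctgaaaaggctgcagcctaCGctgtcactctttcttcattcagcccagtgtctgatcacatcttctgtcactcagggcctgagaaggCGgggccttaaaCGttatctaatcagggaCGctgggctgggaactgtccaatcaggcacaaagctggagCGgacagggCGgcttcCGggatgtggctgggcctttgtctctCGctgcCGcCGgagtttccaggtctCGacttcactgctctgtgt
They lie at chr19:52269337-52269636 (plus strand), chr19:53103373-53103672 (minus), chr19:53520764-53521063 (plus) and chr19:23395422-23395721 (minus). The CG dinucleotide occurred 26 times in the ZNF766 window, 30 times in that of ZNF160, 17 in that of ZNF331 and 11 in that of ZNF91. Windows of members held a median of 20, against 14 over all 35116 promoter windows, and at least 10 in 93.5% of the members' windows against 56.4% of all. Members gave 1 window per gene, all of protein-coding genes. The 35116 were limited neither to 1 per gene nor by gene type, so these sets are unlike. This holds for the shares of all windows given for the motifs too. The 38 windows of the 45 members under 0.1 FPKM in SK-hep1 had a median of 17.5 (range 9 to 30), and the 95 windows of the members at or above 1 FPKM in all lines a median of 22 (range 6 to 40). The letters AAGATGGC of the YY1 motif, searched on both strands, stood in 0 of those 38 windows, in 10 of the 95 and in 2.89% of all windows. The palindromic NRF1 motif stood in 1 of the 38, 1 of the 95 and 1.24% of all windows, and the palindromic ZBTB33 motif in 0, 1 and 0.42%. A match of letters is a description and not a binding site, and no search was made outside these windows.

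SK-hep1 was then compared with Mahlavu across all genes, by edgeR's quasi-likelihood test on the read counts of the 5 and 3 libraries, with a call at an adjusted p under 0.05 and a difference of at least 2-fold. Of the 225 members that passed the filter on low counts, 95 were lower and 22 higher in SK-hep1. Over all 15229 genes tested, 20.9% were called lower and 16.4% higher, against 42.2% and 9.8% of the members. The members' median log2 fold change was -0.71, against -0.06 over all genes, -0.08 over the ZNF genes of other chromosomes (49 of 228 lower, 27 higher) and 0.50 over the other protein-coding genes of chromosome 19 (67 of 786 lower, 233 higher). Setting the 51 members without a read in a line at their bound left the median at -0.71. Such bounds stay on the same side of the median, so this step could not move it. These 51 passed the filter through the line in which they were read, so their direction was set by the filter. On the FPKM scale with limma, where 175 members passed the filter of 1 FPKM, 44 were lower and 19 higher, with a median of -0.01.

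The 4 members with the largest fitted falls, ZNF320, ZNF331, ZNF83 and ZNF841, all lie in cluster H and had 0 reads in SK-hep1. Against a floor of 3 reads over the 5 libraries, ZNF320 was at least 483-fold lower than in Mahlavu (adjusted p = 5.05e-06, edgeR). ZNF331 was at least 472.5-fold lower (adjusted p = 4.9e-06, edgeR), ZNF83 at least 458-fold (adjusted p = 1.52e-05, edgeR) and ZNF841 at least 449.8-fold (adjusted p = 1.38e-05, edgeR). Those bounds cover counting error only. With no read in SK-hep1, these 4 passed the filter through Mahlavu alone. Their direction was thus set by the filter, and their p-values are no support for it.

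In the other direction, ZNF256 of cluster I had 1.74 to 4.16 FPKM in the SK-hep1 libraries and 0 reads in all 3 Mahlavu libraries. It was at least 116-fold higher in SK-hep1 (adjusted p = 7.42e-06, edgeR), but passed the filter through SK-hep1 alone, which set its direction. ZNF175, known as a repressor of HIV transcription in macrophages, had 10.8, 18.8, 27.2, 20.5 and 27.7 FPKM in SK-hep1 and 4.22, 2.31 and 3.33 FPKM in Mahlavu. Its log2 fold change was 2.97 (SE 0.34, adjusted p = 2.77e-05, edgeR). It begins cluster H, at the opposite end from the run without reads. ZNF671 and ZNF132, both in cluster I, differed by 2.94 (SE 0.365) and 2.75 (SE 0.32) on the log2 scale. Of the 95 members called lower, 93 (97.9%) had no overlap between the libraries of the 2 lines, and of the 22 called higher, 20 (90.9%) had none. Over all genes called, these shares were 95.5% and 84.9%.

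**Figure D2:**
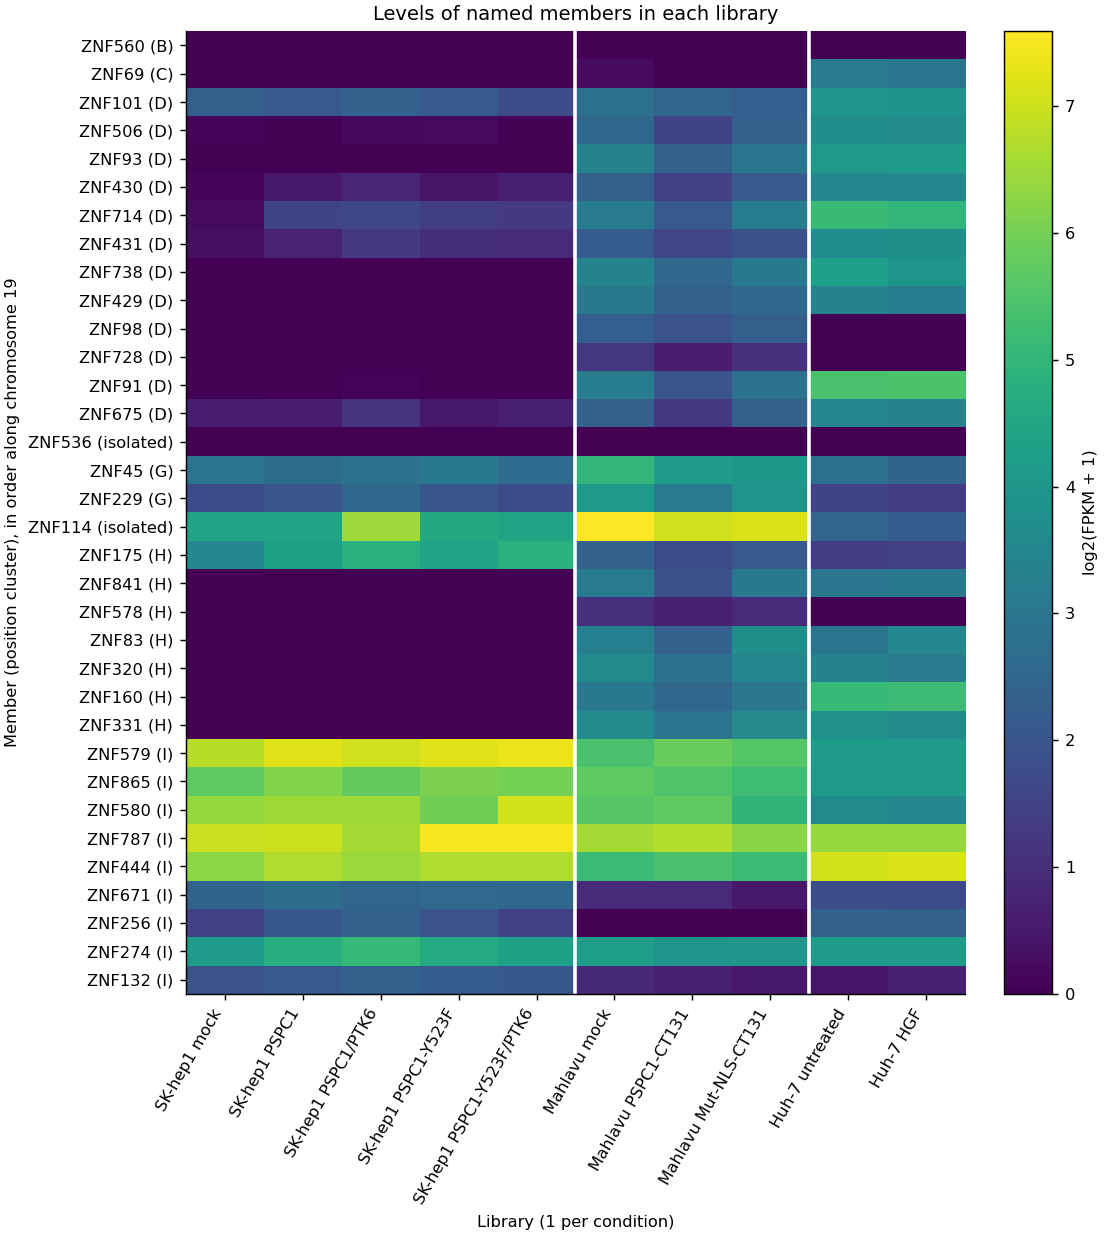
log2(FPKM + 1) of the members named for their level, line difference or cluster, in each of the 10 libraries (white lines separate SK-hep1, Mahlavu and Huh-7), with members in order along chromosome 19 and their position cluster in brackets. ZNF93, ZNF738 and ZNF331 are dark in all SK-hep1 libraries and ZNF256 in all Mahlavu libraries.

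Huh-7 was compared with SK-hep1 and with Mahlavu by limma on log2(quantile-normalized FPKM + 1), where the line means averaged 1 FPKM or more. Differences on this scale understate the change of low genes. Against SK-hep1, 54 of 178 members were higher in Huh-7 and 28 lower. Among the 178, 27 had no read in 1 of both lines and passed the filter through the other, which set their direction. Over all 13716 genes tested, 25.3% were higher and 25.3% lower, against 30.3% and 15.7% of the members. The members' median difference was 0.23, against -0.01 over all genes. Without quantile normalization the split was 92 higher and 17 lower, and with edgeR on the reads recovered from FPKM it was 110 higher and 27 lower of 232 members. After a GC and length correction, chosen once the data had been seen, 40 members were higher and 31 lower. Over all 13704 genes so corrected, 2740 were higher and 2970 lower.

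The largest rises in Huh-7 over SK-hep1 were those of ZNF91, at 5.38 (SE 0.19, adjusted p = 1.61e-09, limma), and ZNF160, at 5.07 (SE 0.12). They were followed by ZNF93 and ZNF738, which had no read in SK-hep1 and were at least 616-fold and at least 778-fold higher in Huh-7, against a floor of 3 reads over the SK-hep1 libraries. All of these had next to no reads in SK-hep1 and passed the filter through Huh-7, so their direction was set by it. Lowest in Huh-7 against SK-hep1 were ZNF175, at -3.58 (SE 0.29, adjusted p = 1.34e-06, limma), ZNF580, at -3.22 (SE 0.29), ZNF579, at -3.16 (SE 0.19), and ZNF114, at -3.11 (SE 0.46). The rises thus named lie in clusters D and H, and of the falls, ZNF580 and ZNF579 both lie in cluster I.

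Against Mahlavu, 35 of 186 members were higher in Huh-7 and 23 lower, with a median difference of 0.15 against 0.02 over all genes. Over all 13661 genes, 22.7% were higher and 23.4% lower, against 18.8% and 12.4% of the members. Without quantile normalization the split was 51 higher and 13 lower, and after a GC and length correction chosen once the data had been seen it was 20 and 30. Over all 13643 genes so corrected, 2726 were higher and 2967 lower. ZNF91 rose by 2.90 (SE 0.20, adjusted p = 5.8e-07, limma), ZNF69 by 2.59 (SE 0.09), ZNF160 by 2.37 (SE 0.13) and ZNF714 by 2.37 (SE 0.41). ZNF69 had 7.62 and 6.76 FPKM in Huh-7, 0 to 0.165 FPKM in Mahlavu and 0 reads in SK-hep1. On the lower side, ZNF114 differed by -5.30 (SE 0.50, adjusted p = 5.7e-06, limma), ZNF229 by -2.59 (SE 0.23) and ZNF45 by -2.10 (SE 0.28). ZNF98 had 3.83, 2.82 and 3.91 FPKM in Mahlavu and 0 in both Huh-7 libraries, at least 33.3-fold lower in Huh-7 against a floor of 3 reads over its 2 libraries.

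Cluster D had the largest share of tested members called in all 3 pairs of lines. In it, 34 of 36 members were lower in SK-hep1 than in Mahlavu, all 21 tested were higher in Huh-7 than in SK-hep1, and 13 of 28 were higher and 3 lower in Huh-7 than in Mahlavu. Over all genes tested, 20.9% were lower in SK-hep1 than in Mahlavu and 25.3% higher in Huh-7 than in SK-hep1. Against Mahlavu, 22.7% were higher and 23.4% lower in Huh-7. Most members of cluster D had under 0.1 FPKM in SK-hep1 and passed the filters through the other line. Their direction in the comparisons with SK-hep1 was thus largely set by the filters. The summed level of cluster D was 247 FPKM in Huh-7, 94.0 in Mahlavu and 7.60 in SK-hep1. Only ZNF101, at its start, and ZNF714 were at or above 1 FPKM in SK-hep1. ZNF101 had 2.36 to 4.09 FPKM in SK-hep1, 3.83 to 6.01 FPKM in Mahlavu and 14.7 and 13.7 FPKM in Huh-7, so SK-hep1 and Mahlavu overlapped. ZNF714 had 0.159, 1.97, 2.12, 1.65 and 1.40 FPKM in SK-hep1, 7.53, 3.35 and 8.05 FPKM in Mahlavu and 34.1 and 31.0 FPKM in Huh-7. ZNF430 and ZNF431, beside it, had 10.3 and 12.3 FPKM in Huh-7 and 0.426 and 0.824 FPKM in SK-hep1.

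Of the other highest members of cluster D, ZNF506 had 11.9 FPKM in Huh-7, 3.61 in Mahlavu and 0.0811 in SK-hep1, from 15 reads. ZNF738 had 16.3, 7.20 and 0 FPKM, and ZNF429 8.87, 5.43 and 0 FPKM in the same order. ZNF675, past the second run, had 9.72, 3.15 and 0.646 FPKM.

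Cluster H had 27 of 34 tested members lower in SK-hep1 than in Mahlavu and 1 higher, and 19 of 26 higher in Huh-7 than in SK-hep1 and 1 lower. Huh-7 and Mahlavu differed there in 2 of 33 tested members, both higher in Huh-7. Cluster C had 10 of 17 lower and 0 higher in SK-hep1 against Mahlavu, and 8 of 13 higher and 1 lower in Huh-7 against SK-hep1. Over all genes tested, 20.9% were lower and 16.4% higher in SK-hep1 than in Mahlavu. Huh-7 had 25.3% higher and 25.3% lower than SK-hep1, and 22.7% higher and 23.4% lower than Mahlavu. Its end member ZNF791 had 4.06 FPKM in SK-hep1, 6.92 in Mahlavu and 14.5 in Huh-7. In clusters H and C, too, members with next to no reads in SK-hep1 passed the filters through the other line. The filters thus set the direction of these members.

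Cluster G differed from these in that Mahlavu stood above both other lines. In it, 14 of 24 members were lower in SK-hep1 than in Mahlavu and 0 higher, and 9 of 21 were lower in Huh-7 than in Mahlavu and 0 higher. Huh-7 against SK-hep1 gave 0 of 19 higher and 3 lower. Over all genes tested, 20.9% were lower in SK-hep1 and 23.4% lower in Huh-7 than in Mahlavu, and 25.3% were called in each direction between Huh-7 and SK-hep1. No member of the cluster was under 0.1 FPKM in any line, and its summed level was 217 FPKM in Mahlavu, 105 in SK-hep1 and 105 in Huh-7. ZNF45 had 31.2, 17.1 and 15.5 FPKM in Mahlavu, 5.26 to 7.41 FPKM in SK-hep1 and 5.78 and 4.30 FPKM in Huh-7. ZNF229 had 16.6, 7.64 and 14.2 FPKM in Mahlavu, 2.37 to 4.76 FPKM in SK-hep1 and 1.91 and 1.47 FPKM in Huh-7. ZNF224, a repressor of the aldolase A gene, had line means of 6.52 FPKM in Mahlavu, 1.93 in SK-hep1 and 6.10 in Huh-7.

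Cluster I carried most of the members that were higher in SK-hep1, with 18 of 57 higher and 3 lower than in Mahlavu, and 20 of 52 lower and 2 higher in Huh-7 than in SK-hep1. The shares higher in SK-hep1 were close to those of the other protein-coding genes of chromosome 19. Those were 29.6% against Mahlavu and 38.7% against Huh-7, with 8.5% and 11.5% in the opposite direction. Of the summed level of cluster I in SK-hep1, 825 FPKM, 645 FPKM came from the 16 members between ZNF628 and ZNF835, which form a cluster of their own when a gap of 0.5 Mb is used. ZNF628, ZNF579, ZNF580 and ZNF581 were higher in SK-hep1 than in Mahlavu, and ZNF580 and ZNF581 overlap in position, so reads from the shared stretch cannot be told apart. ZNF667 and ZNF471 in the same stretch had line means of 0 and 0.00286 FPKM in SK-hep1 and 1.755 and 0.741 FPKM in Mahlavu.

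No remaining cluster exceeded the shares called over all genes tested between SK-hep1 and Mahlavu, 20.9% lower and 16.4% higher in SK-hep1. Cluster F had 5 of 26 members lower in SK-hep1 and 1 higher, B 0 lower and 1 higher of 13, A 0 of 4 in either direction and E 1 of 5 lower. In cluster F, the neighbours ZNF829 and ZNF568 had 2 reads and 1 read in SK-hep1, with 1.45 and 4.22 FPKM in Mahlavu, between ZNF345 at 0.504 FPKM and ZNF420 at 2.03 FPKM in SK-hep1.

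Reads in 1 line only were found for 8 members in Mahlavu, 1 in Huh-7 and 1 in SK-hep1. The highest of those in Mahlavu were ZNF98 (given above), ZNF728 at 1.36, 0.518 and 1.11 FPKM, and ZNF578 at 1.08, 0.588 and 0.899 FPKM. Each had no read in the other lines. ZNF560 in Huh-7 had 0.0414 FPKM in the HGF library alone, and ZNF536 in SK-hep1 had 1 read.

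Transcript GC content moved with the line differences, in members and in other genes. Members with GC under 45% had a median log2 fold change of -1.52 between SK-hep1 and Mahlavu (90 of 161 lower, 4 higher). All protein-coding genes with GC under 45% had one of -0.41 (1220 of 4809 lower, 359 higher). Of those 161 members, 47 had no read in 1 of both lines and passed the filter through the other. The 45 members under 0.1 FPKM in SK-hep1 alone had a median GC of 40.3%, against 44.1% for the 103 at or above 1 FPKM in all lines. Low GC and the lack of reads in SK-hep1 were thus not separated among members. Among members with GC over 55%, 10 of 22 were higher and 0 lower, with a median of 0.93, against 0.39 over all protein-coding genes of that range. Spearman's rho of the fold change with GC was 0.27 across 15203 genes and 0.55 across the 225 members, which are not independent and share libraries. For Huh-7 against SK-hep1 these were -0.37 and -0.54, and for Huh-7 against Mahlavu -0.26 and -0.20. With a quadratic fit of GC and length taken out of the fold changes, 80 members were lower and 21 higher in SK-hep1 than in Mahlavu. Over all 15203 genes so corrected, 2467 were lower and 2658 higher. The part of GC content in the levels of single members was not tested.

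**Figure D3:**
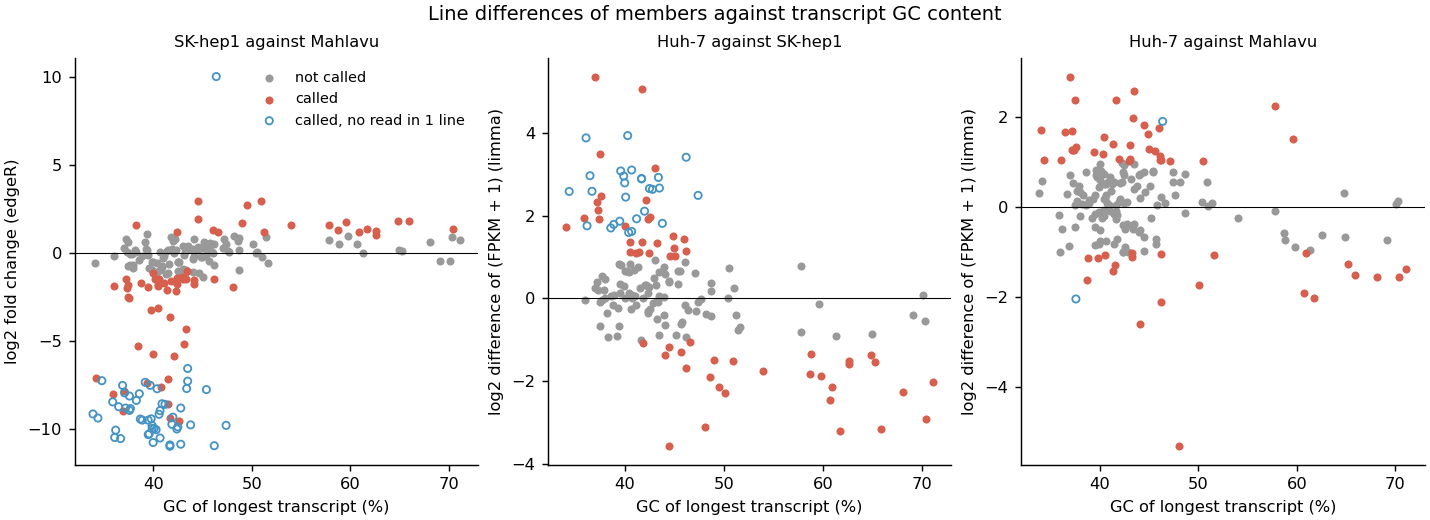
Line difference of each tested member on the log2 scale (edgeR fold change for SK-hep1 against Mahlavu, limma difference of log2(FPKM + 1) for both Huh-7 comparisons) against GC content of its longest transcript (%), with called members in red, called members without a read in 1 of both lines as open circles and others in grey. The open circles between SK-hep1 and Mahlavu lie at a GC of under 50%, all but ZNF256 below 0, and members with GC over 55% lie mostly above 0 there. The values of open circles depend on the fitted prior.

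The corepressor and heterochromatin genes through which KRAB zinc finger proteins act were read in all lines with 1 exception. Of 25 listed genes, 3 were higher in SK-hep1 than in Mahlavu (TRIM28, UHRF1 and HDAC1) and 2 lower (CBX3 and MPHOSPH8), with a median of 0.08 against -0.06 over all genes. Over all genes tested 16.4% were higher and 20.9% lower there. In Huh-7 against SK-hep1, 7 of the 25 were higher and 3 lower (all genes 25.3% in each direction), and against Mahlavu 6 were higher and 2 lower (22.7% and 23.4%). TRIM28, the corepressor that the KRAB domain binds, had 742 to 1699 FPKM in SK-hep1, 324 to 525 FPKM in Mahlavu and 497 to 521 FPKM in Huh-7, and its log2 fold change between SK-hep1 and Mahlavu was 1.68 (SE 0.33, adjusted p = 0.00143, edgeR). SETDB1 had line means of 20.5, 23.5 and 24.2 FPKM and was called in no pair. MPHOSPH8, a chromatin reader of the HUSH silencing complex, was the exception, with 1 read in all SK-hep1 libraries and line means of 19.6 FPKM in Mahlavu and 30.7 FPKM in Huh-7. ZNF274, a KRAB member that binds the 3′ ends of other zinc finger genes, had 17.1, 26.9, 33.1, 24.2 and 19.3 FPKM in SK-hep1, 17.7, 14.25 and 14.7 FPKM in Mahlavu and 17.4 and 17.25 FPKM in Huh-7. It was 2-fold different in no pair of lines (largest log2 fold change 0.90, SE 0.21, adjusted p = 0.00413, edgeR, SK-hep1 against Mahlavu).

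Within the lines, conditions were compared with the mock or untreated library on quantile-normalized FPKM, for genes averaging 1 FPKM or more in the pair. With 1 library per condition there is no replicate check, and the 4 SK-hep1 contrasts share the mock library, as both Mahlavu contrasts share theirs. With PSPC1, 4 of 128 members were at least 2-fold higher and 0 lower, against 3.38% and 2.19% of all genes, and the members' median log2 difference was 0.17, against -0.03. With PSPC1/PTK6, 10 of 132 were higher and 0 lower (all genes 5.09% and 3.32%), with a median of 0.18 against -0.04, and 21 passed 2-fold with FPKM as deposited. With PSPC1-Y523F, 4 of 123 were higher and 0 lower (2.83% and 2.46%), with a median of 0.22 against -0.01. With PSPC1-Y523F/PTK6, 6 of 124 were higher and 0 lower (3.44% and 1.59%), with a median of 0.10 against -0.04. The ZNF genes of other chromosomes had medians of -0.07, -0.13, -0.003 and -0.07 in the same order. The other protein-coding genes of chromosome 19 had medians of 0.18, -0.02, 0.16 and 0.17. A shift upward was thus not particular to the members, except with PSPC1/PTK6.

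The member with the largest difference in all 4 contrasts was ZNF875. It had 35 reads in SK-hep1 mock (1.42 FPKM), and 250, 435, 171 and 243 reads in the libraries with the wild-type protein alone and with PTK6, then with the Y523F mutant alone and with PTK6. Its log2 differences were 2.25, 2.48, 1.78 and 2.05, and its levels in the other lines ran from 9.38 to 13.8 FPKM. With 1 mock library, a low value in mock and a rise with the constructs cannot be told apart. ZNF714 had 7 reads in mock and 81, 103, 71 and 69 reads in the same order. ZNF350 (ZBRK1), a repressor that works with BRCA1, was also at least 2-fold higher in all 4. Since all 4 contrasts use the same mock library, they are not independent of each other.

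Members were higher in general in the PSPC1/PTK6 library as deposited, with a median of 1.40 FPKM against 0.650 to 0.827 in the other SK-hep1 libraries. ZNF114 had 2543 reads there, against 505 to 599 in the other 4 SK-hep1 libraries, a log2 difference of 1.97 to mock. ZNF575 had 69 reads in mock and 296 with PSPC1-Y523F/PTK6, a difference of 1.67. The largest falls were under 2-fold in each SK-hep1 contrast. They were those of ZNF317 (-0.55) and ZNF180 (-0.47) with PSPC1, ZNF653 (-0.89) and ZNF414 (-0.69) with PSPC1/PTK6, ZNF846 (-0.94) and ZNF77 (-0.73) with PSPC1-Y523F, and ZNF317 (-0.685) and ZNF101 (-0.45) with PSPC1-Y523F/PTK6. The 45 members under 0.1 FPKM in SK-hep1 had 15 reads together in mock and 3, 10, 5 and 2 with the constructs in the order above.

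In Mahlavu, the library labelled PSPC1-CT131 had 0 of 163 members at least 2-fold higher or lower than mock (all genes 3.17% and 3.16%). This count depended on the scaling and the pseudocount, since 27 members passed 2-fold with FPKM as deposited and 12 with a pseudocount of 0.1. The members' median was -0.26, with 114 of 163 below 0, against 0.01 over all genes. This library showed a GC trend across all genes (Spearman's rho 0.57), and all 4237 protein-coding genes with GC under 45% had a median of -0.32, against -0.41 for the 113 members of that range. With GC and length taken out the members' median was -0.05. The largest rises were ZNF358 (0.95, and 0.56 with GC and length taken out) and ZNF653 (0.91, and 0.53), and the largest falls ZNF112 (-0.88) and ZNF577 (-0.87).

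In the library labelled Mut-NLS-CT131, 2 of 173 members were at least 2-fold lower and 0 higher (all genes 3.26% and 3.16%), with a median of -0.01, and 8 passed 2-fold with a pseudocount of 0.1. Both lie in cluster G. ZNF180 had 498 reads in mock and 141 in this library, a difference of -1.21, and ZNF112 had 176 and 41 reads, a difference of -1.08. In the library labelled PSPC1-CT131, ZNF180 had 172 reads and ZNF112 47. The largest rises were ZNF880 (0.85) and ZNF805 (0.84).

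HGF left 0 of 202 members in Huh-7 at least 2-fold higher or lower (all genes 0.428% and 0.393%). Of these members 135 were below 0, with a median of -0.07, against -0.002 over all genes and -0.01 over the ZNF genes of other chromosomes. The largest falls were ZNF551, from 109 to 50 reads (-0.75), and ZNF222, from 47 to 24 reads (-0.605), and the largest rises ZNF433, from 18 to 33 reads (0.58), and ZNF83, from 160 to 230 reads (0.56).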

How the data were processed

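RNA-Seq was analysed in 10 libraries of established lines, grouped by the sample labels. The authors deposited raw read counts per gene with FPKM for SK-hep1 and Mahlavu, and FPKM only for Huh-7. Per the labels, TopHat2 2.0, HTSeq 0.6.1, edgeR and GRCh38.p12 were named in the submitters' processing notes. The study's methods name rRNA depletion and the hg18 build, whereas the labels give poly-A selection and GRCh38, which positions in the tables match. Treatment of reads that map to several paralogs, and of strand, is not given in the sources used here, so values of near-identical neighbours and overlapping genes are uncertain. Deposited FPKM were not quantile normalized: in the 8 counted libraries they gave the same length per gene within 0.1% for 100% of the 30246 genes with a length, so Huh-7 totals and reads were recovered from its FPKM (whole within 0.05 for 100% of values). Recovered totals were 16374128 and 15245935, and deposited totals 19085682 to 24278662 reads.

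Tables held 8 lines without a gene identifier, which were left out, and 57532 of 58302 genes matched a symbol. Positions were those of GENCODE 29 for 240 of 247 members. GC content is that of the longest GENCODE 29 transcript. A length behind FPKM, needed for reads, was found for 243 members.

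SK-hep1 and Mahlavu were compared by edgeR 4.0.16 (TMM, filterByExpr, robust quasi-likelihood), with DESeq2 1.42.0 as an alternative. Huh-7 was compared by limma 3.58.1 (trend) on log2(quantile-normalized FPKM + 1) in a fit of all 10 libraries. Benjamini-Hochberg adjustment ran over all genes tested. Test thresholds were an adjusted p of 0.05 and 2-fold. Quantile normalization, named in the study's methods, was applied over the 10 libraries for lines, and over 8 or 2 for conditions. Scripts were tested on simulated data. Nothing says that the libraries of a line came from separate cultures of 1 condition, so p-values measure only the spread between these libraries. Reads carry no molecular identifiers, and bounds cover counting error only. The planned comparison of protein features was not made, since no RefSeq protein table was used here.

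Members, lists and tests were chosen with earlier results of these data known. Named members were the 6 highest by level, up to 4 per direction and pair of lines among called members without overlap, 2 per direction and condition, the 10 highest of the cluster with the largest share called, ZNF274 with TRIM28 and SETDB1, and up to 3 with reads in 1 line only. Other named genes were chosen after their values were seen.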

Additional observations from a re-analysis of the deposited data

Results flagged for a closer look

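Among the 5 SK-hep1 libraries, 30 named members were tested for a library far from the others by Dixon's ratio, the gap of the extreme library to its neighbour over the whole range, and 3 exceeded the limit for 5 samples. About 1 in 20 such groups is marked by chance. Some of these members were named for a large difference in these same libraries, so 3 of 30 cannot be judged against that rate. In all 3 the PSPC1/PTK6 library was the highest. ZNF114 had 88.4 FPKM there against 20.5 to 23.3 FPKM in the others (ratio 0.958). ZNF675 had 1.26 FPKM against 0.402 to 0.540 FPKM (ratio 0.839). ZNF805 had 1.82 FPKM against 0.866 to 1.09 FPKM (ratio 0.769). As deposited, members were higher in general in this library (median 1.40 FPKM, against 0.650 to 0.827 FPKM in the others). On quantile-normalized FPKM, a check added after seeing the data, the ratio was 0.94 for ZNF114 and 0.536 and 0.391 for ZNF675 and ZNF805, so that ZNF114 alone still exceeded the limit.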

How the results depend on the processing

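Of 117 members called between SK-hep1 and Mahlavu, limma on FPKM called 63. For Huh-7 against SK-hep1 (82 members), a pseudocount of 5 gave 37 and edgeR on recovered reads 137. For Huh-7 against Mahlavu (58), dropping the fold threshold gave 116, a pseudocount of 5 gave 17 and edgeR on recovered reads 96. Leaving out 1 library at a time gave 112 to 127, 77 to 83 and 52 to 59 members. Taking out GC content and length, chosen after seeing the data, gave 101, 71 and 50.

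Counts of members at least 2-fold from mock or untreated moved with the pseudocount, the scaling and the filter. With a pseudocount of 0.1 they were 12 for PSPC1 (main count 4), 17 for PSPC1/PTK6 (10), 8 for PSPC1-Y523F (4), 10 for PSPC1-Y523F/PTK6 (6), 12 for PSPC1-CT131 (0), 8 for Mut-NLS-CT131 (2) and 1 for HGF (0). With a pseudocount of 5 they were 1, 2, 1 and 3 in SK-hep1 and 0 for Mut-NLS-CT131. With FPKM as deposited they were 21 for PSPC1/PTK6, 2 for PSPC1-Y523F, 27 for PSPC1-CT131 and 4 for Mut-NLS-CT131. With a mean of at least 5 FPKM they were 1 for PSPC1, 3 for PSPC1/PTK6, 2 for PSPC1-Y523F and 1 for Mut-NLS-CT131. Without quantile normalization the median of all genes was 0.42 for Huh-7 against SK-hep1 (members 0.94), 0.12 for Huh-7 against Mahlavu (0.42), 0.15 for PSPC1/PTK6 (0.49), -0.13 for PSPC1-Y523F/PTK6 (0.02) and -0.24 for PSPC1-CT131 (-0.63). The causes were not tested.

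No paired analysis was possible because each group has 1 library and the labels give no shared replicate numbers. Reads shared by near-identical paralogs were not separated here, and line, sequencing run and construct cannot be told apart.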

Other observations

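Genes around PSPC1 on chromosome 13 also had next to no reads in SK-hep1. MPHOSPH8, on one side, had 1 read in SK-hep1, and ZMYM5 and ZMYM2 on the other side had 0 reads, against 2.64 and 8.45 FPKM in Mahlavu and 4.56 and 23.6 FPKM in Huh-7. PSPC1 itself had 0 reads in SK-hep1 mock, and whether these genes are present in the genome of these cells was not tested. These genes were looked at after the value of MPHOSPH8 was seen.

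Of the other protein-coding genes within the spans of the clusters, 4 were at or above 1 FPKM in Mahlavu and Huh-7 and under 0.1 FPKM in SK-hep1. They were ACP5 in cluster C, ZFP82 and ZFP30, both zinc finger genes outside the naming rule, in cluster F, and ZSCAN18, also a zinc finger gene, in cluster I. ACP5 had 55.75 FPKM in Mahlavu, 8.64 in Huh-7 and 0.0950 in SK-hep1.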
